A study of Homo sapiens with 4 samples.

Results

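WNT ligands and the receptors that take them up outside the Frizzled and LRP pair were followed in the human glioblastoma cell line LN-229 by 10 genes: the ligands WNT5A, WNT5B, WNT3 and WNT7B, the receptors ROR1, ROR2, RYK and PTK7, and the ligand processing factors PORCN and WLS. A probe set is a group of short probes on an Affymetrix array that gives 1 value, for 1 or several transcripts. Probe sets were taken where a member was the only gene symbol in the platform annotation. This gave 19 of 54613 probe sets, for 8 of the 10 genes. The 3 probe sets of WNT3 also carry a second symbol and the annotation used here pairs no probe set with PORCN, so neither gene has values here. The members were picked by name and not by their levels, so the word "expressed" for them is checked against the data below.

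The series holds 4 arrays, each of 1 culture. In 2 arrays the cells were the non-induced control, with no treatment, and in 2 they had been given doxycycline for 48 h to express WIF1, which is secreted and captures WNT ligands outside the cell. The labels call the 2 cultures of a group biological replicates, and no array came from cells given doxycycline alone, so effects of the drug and of WIF1 cannot be told apart. The deposited values are log2 intensities, with array medians from 6.15 to 6.19. WIF1 itself was read by 1 probe set, below the background floor described further on, at 2.98 and 2.90 in the control arrays and 2.93 and 3.03 in the induced ones. Its difference was 0.04 (SE 0.10, adjusted p = 0.911), so the induction is not seen in this probe set. Whether its probes lie in the expressed construct is not given in the sources used here, and arrays are called induced by their label alone.

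WNT proteins are lipid-modified by the acyltransferase PORCN in the endoplasmic reticulum, carried to the cell surface by the transmembrane protein WLS, and then bind receptors on the same or a neighbouring cell. WNT5A is the ligand best known for signals that do not use beta-catenin, and it acts through ROR1 and ROR2, single-pass receptors with a Frizzled-like ligand-binding domain. RYK binds WNT ligands through an extracellular WIF domain, the kind of domain that gives WIF1 its name, and PTK7 is a pseudokinase co-receptor of planar cell polarity. In glioma, WNT5A is known for its link to cell migration.

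In these cells WNT5A, WLS and RYK had bright signals, no probe set of ROR1 or ROR2 lay above a background floor set from olfactory receptor probe sets, and no member passed the test between induced and control arrays. The largest difference among bright probe sets was 0.21 log2 units, for WNT5A. Of the 7 genes with several probe sets 4 had the same sign in each, and RYK, WLS and ROR1 did not. Of the 19 member probe sets, 0 had an adjusted p under 0.05 (limma with Benjamini-Hochberg adjustment over all 54613 probe sets), against 0% of all probe sets. The members' adjusted p values ran from 0.476 to 0.977. At an unadjusted p under 0.05 stood 1 member probe set higher and 2 lower, 15.8% of the members, where 4.75% of all probe sets were higher and 5.27% lower. The groups did not overlap in 2 member probe sets that were higher and 4 that were lower, against 17.9% and 23.5% of all probe sets. The median difference of the members was -0.01 log2 units, and that of all probe sets was -0.01. The median size of a difference was 0.086 in the members and 0.083 in all probe sets. In 14 of the 19 the difference was smaller than the wider gap between 2 replicates of a group. This was counted in the members alone, so it does not set them apart from other probe sets.

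To place the levels, a floor was set at the 95th percentile of 107 probe sets for olfactory receptors, genes that are mostly silent outside the nose. It lay at 6.55 log2 units, which is also above 57.1% of all probe sets. Probe sets differ in how strongly they bind, so levels are set against this floor and not ranked between genes. Of the 19 member probe sets 11 lay above it: both of WNT5A, all 3 of RYK, all 3 of WLS and 1 each of WNT5B, WNT7B and PTK7. None of the 3 ROR1 probe sets and not the single ROR2 probe set did. The nearest above it was WNT5B at a mean of 6.74, and the nearest below were ROR1 at 6.52 and the second WNT7B probe set at the same value. With a floor at the 99th percentile of the olfactory receptor probe sets (6.95) 10 of the 19 lay above it, and WNT5B then joined those below. With the median of all probe sets as the floor 14 lay above it, among them the brightest ROR1 probe set, which is at the 56.6 percentile.

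**Figure D1:**
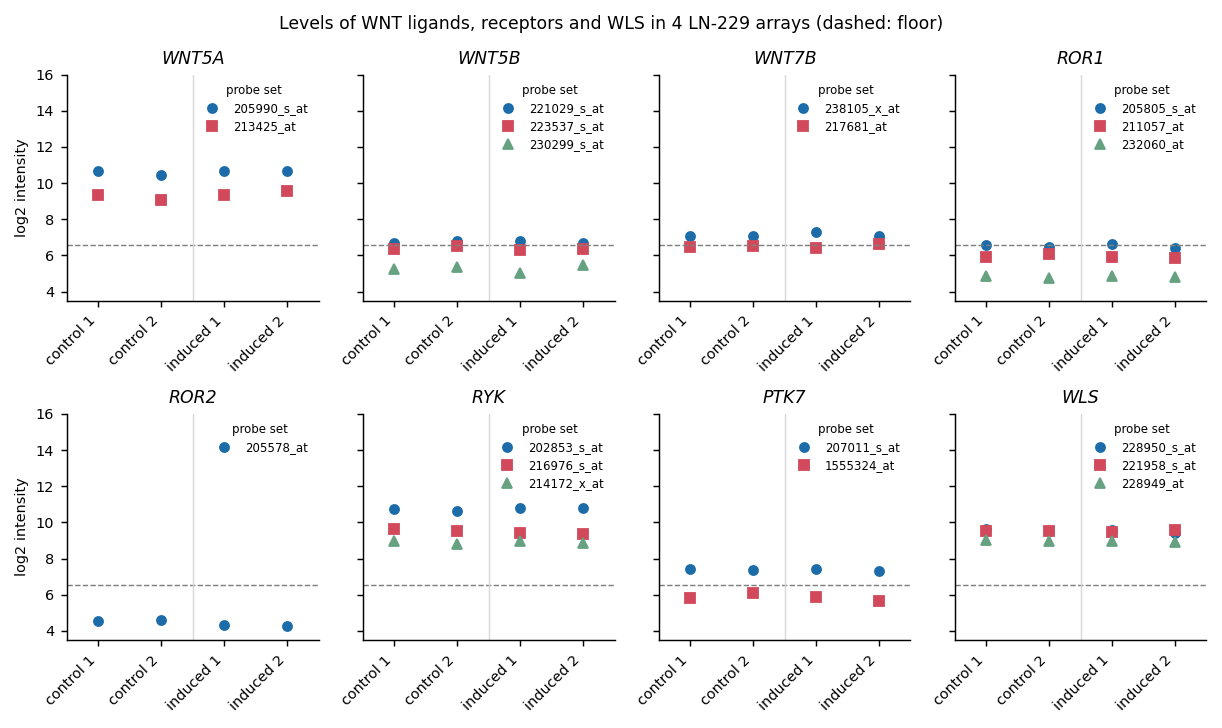
Log2 intensity (vertical axis) of each member probe set in the 4 arrays (horizontal axis), 1 panel per gene, with the floor of 6.55 as a dashed line. WNT5A, RYK and WLS lie well above the floor in every array, WNT5B, WNT7B and PTK7 have 1 probe set above it by their means, and ROR1 and ROR2 have none.

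Among the ligands, WNT5A was the one far above the floor. RefSeq gives this gene 2 transcription starts on the minus strand of chromosome 3 (GRCh38.p14). Where its 2 probe sets lie relative to these starts was not given in the sources used here, so their signals are assigned to neither. The 250 bases before each start are shown. Both are written 5′ to 3′ on the strand of the gene. Capitals would mark a TCF/LEF motif (CTTTGAA or CTTTGAT or CTTTGTA or CTTTGTT on either strand), the site through which beta-catenin acts, and there is none in either window.
WNT5A start at the upstream position, chr3:55487307-55487556: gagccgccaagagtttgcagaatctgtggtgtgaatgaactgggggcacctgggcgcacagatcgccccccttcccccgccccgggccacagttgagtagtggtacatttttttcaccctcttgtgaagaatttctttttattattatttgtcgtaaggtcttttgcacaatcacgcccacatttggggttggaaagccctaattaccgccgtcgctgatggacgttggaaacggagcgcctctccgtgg
WNT5A start at the downstream position, chr3:55481399-55481648: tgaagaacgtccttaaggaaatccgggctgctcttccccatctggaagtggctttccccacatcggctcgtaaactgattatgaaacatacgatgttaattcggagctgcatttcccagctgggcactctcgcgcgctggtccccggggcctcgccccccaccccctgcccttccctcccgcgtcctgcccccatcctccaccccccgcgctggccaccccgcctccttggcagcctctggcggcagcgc
The G and C share was 52.8% before the upstream start and 64.4% before the downstream one. The motif was found in 0 of 14 such windows of 9 member genes, WNT3 and PORCN included, while 12% of 35116 windows in the RefSeq table held it. The 2 WLS windows overlap, and so few windows cannot show that the motif is rarer in these genes. These letters being absent from 250 bases says nothing about the factor.

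The brighter WNT5A probe set, 205990_s_at, read 10.64 and 10.46 in control replicates 1 and 2, and 10.67 and 10.68 in the induced replicates. Both induced values were above both controls, but the first control lay just under them and the second control was the low one. The difference was 0.12 log2 units (SE 0.063, 95% interval -0.03 to 0.28), a ratio of 1.09, and the adjusted p was 0.546. The other probe set, 213425_at, had control values of 9.37 and 9.09 against induced values of 9.34 and 9.54, so its groups overlapped. Its difference was 0.21 (SE 0.11, 95% interval -0.05 to 0.47, adjusted p = 0.548). These values rest on the second control array: without it the differences were 0.03 and 0.07, and without the first control array they were 0.22 and 0.35. The dimmer probe set gave 0.11 without the second induced array. The intervals, which are not adjusted for the number of probe sets, reach at most a ratio of 1.21 for the brighter probe set and 1.38 for the dimmer.

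WNT5B, the close paralogue of WNT5A, was near the floor. Its brightest probe set had control values of 6.72 and 6.78 against induced values of 6.80 and 6.67, with a difference of -0.01 (SE 0.084, 95% interval -0.21 to 0.19, adjusted p = 0.977). The induced values lay on either side of the controls. The 2 other WNT5B probe sets, below the floor, gave -0.09 and -0.06. WNT7B, a ligand known for canonical signals to endothelial and epithelial cells, had control values of 7.10 and 7.09 against induced values of 7.29 and 7.10 in its brighter probe set. The first induced array alone was high, and the difference was 0.10 (SE 0.085, adjusted p = 0.701). Without that array it was 0.0076, and without the second induced array 0.19. That probe set has the suffix x, which marks probes that can match other transcripts too, and the second WNT7B probe set gave 0.04, or -0.07 without the second induced array.

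WLS, the carrier without which WNT proteins are not released, was above the floor in all 3 of its probe sets. The brightest had control values of 9.63 and 9.54 against induced values of 9.59 and 9.43 (difference -0.07, SE 0.068, 95% interval -0.23 to 0.10, adjusted p = 0.748). The second had control values of 9.53 and 9.51 against induced values of 9.50 and 9.59, with a difference of 0.02 (SE 0.050). In the third, the controls at 9.05 and 8.98 lay above the induced arrays at 8.95 and 8.89, with a difference of -0.10 (SE 0.054, adjusted p = 0.572). The first pair of WLS probe sets overlapped between groups and the third did not. Over the 3 the unadjusted 95% intervals spanned -0.23 to 0.15 log2 units.

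RYK was the receptor with bright signals, and its probe sets differed in sign. The brightest, 202853_s_at, had control values of 10.72 and 10.65 against induced values of 10.80 and 10.80 (difference 0.12, SE 0.042, 95% interval 0.01 to 0.22, adjusted p = 0.477). In 216976_s_at the controls were at 9.62 and 9.50 and the induced arrays at 9.43 and 9.35 (difference -0.17, SE 0.059, 95% interval -0.31 to -0.02, adjusted p = 0.476). The groups did not overlap in either, and the induced arrays were the high ones in the first and the low ones in the second. Without the second control array the first was at 0.08 (unadjusted p = 0.151), and without the first control array the second was at -0.11 (unadjusted p = 0.178). The third probe set, 214172_x_at, had control values of 8.96 and 8.83 against induced values of 8.99 and 8.86, with a difference of 0.03 (SE 0.070). Its suffix x, as in WNT7B, marks probes that can match other transcripts too.

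The gap between the first and second RYK probe sets within an array was 1.11 and 1.15 log2 units without induction, against 1.37 and 1.45 with it. Its difference was 0.28 (SE 0.098, 95% interval 0.04 to 0.52, adjusted p = 0.589 over 21316 such pairs of all genes, with the brightest probe set of a gene set against each other one). This comparison was chosen after the RYK values were seen. Of the 21316 pairs 0% passed at an adjusted p under 0.05 and 8.41% at an unadjusted p under 0.05; of the 11 pairs within member genes the RYK pair alone was in the latter group. Averaged over its 3 probe sets, the one with the suffix x among them, RYK differed by -0.0065 (SE 0.050), so no direction is given for the gene. Which part of the RYK transcript each probe set reads was not given in the sources used here, and its part in this gap was not tested.

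**Figure D2:**
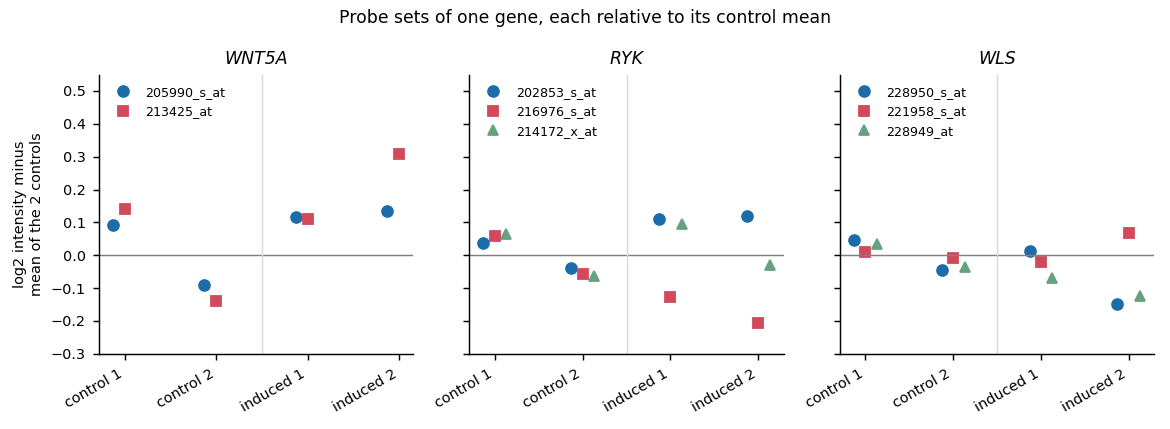
Log2 intensity of each probe set of WNT5A, RYK and WLS minus its mean in the 2 controls (vertical axis), by array (horizontal axis). In RYK the circles lie above 0 and the squares below 0 in both induced arrays, while in WNT5A the second control is low in both probe sets.

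ROR2 had the most negative difference of all members and a dim signal. It had control values of 4.55 and 4.62 against induced values of 4.35 and 4.28, which put its mean at the 20.7 percentile of all probe sets. Both induced arrays were below both controls, with a difference of -0.27 (SE 0.10, 95% interval -0.52 to -0.03, adjusted p = 0.482). At this level a difference cannot be read as one in ROR2 transcript. ROR1 had control values of 6.55 and 6.48 against induced values of 6.64 and 6.42, with the controls between the induced arrays and a difference of 0.02 (SE 0.10, adjusted p = 0.973). Its 2 dimmer probe sets gave -0.13 and 0.02. PTK7 had control values of 7.43 and 7.37 against induced values of 7.44 and 7.29 (difference -0.04, SE 0.078, 95% interval -0.23 to 0.15, adjusted p = 0.894), with the controls again between the induced arrays. The other PTK7 probe set, below the floor, gave -0.19 (SE 0.13).

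**Figure D3:**
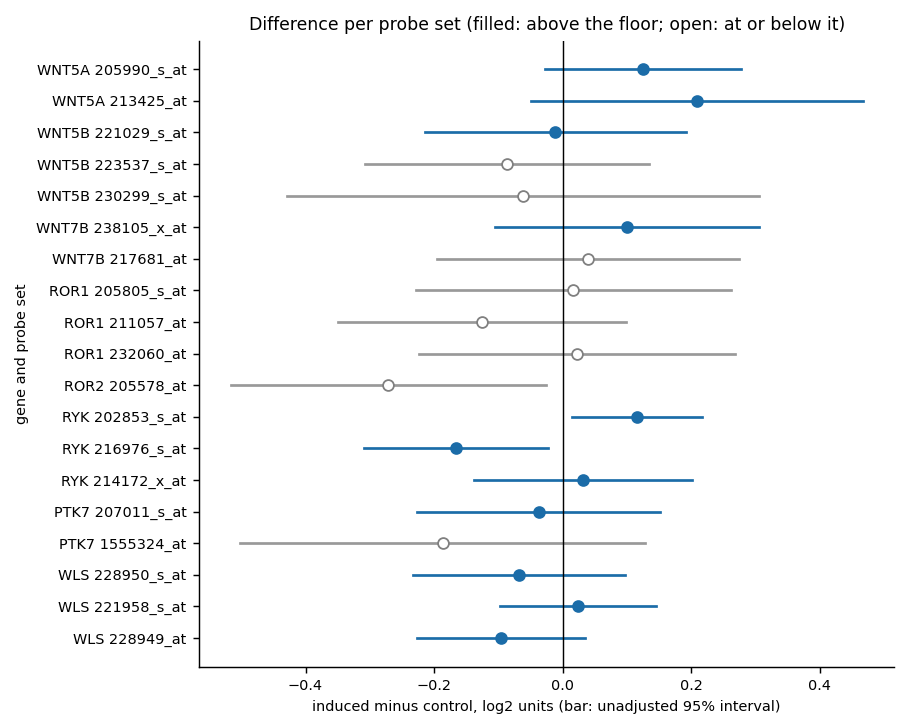
Induced minus control difference in log2 units (horizontal axis) of the 19 member probe sets, with the unadjusted 95% interval as a bar; filled points lie above the floor. The intervals of 3 probe sets leave out 0, which are ROR2 at -0.27 and the RYK probe sets at 0.12 and -0.17.

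Dim probe sets vary more than bright ones, so each member was also set beside all probe sets of like level, in 20 bins of equal size. Of the 19, 16 lay within the central 90% of their bin. The other 3 were the dimmer WNT5A probe set at 0.21 (bin range -0.16 to 0.19), RYK 216976_s_at at -0.17 (the same bin) and ROR2 at -0.27 (bin range -0.27 to 0.27), each just past its edge.

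**Figure D4:**
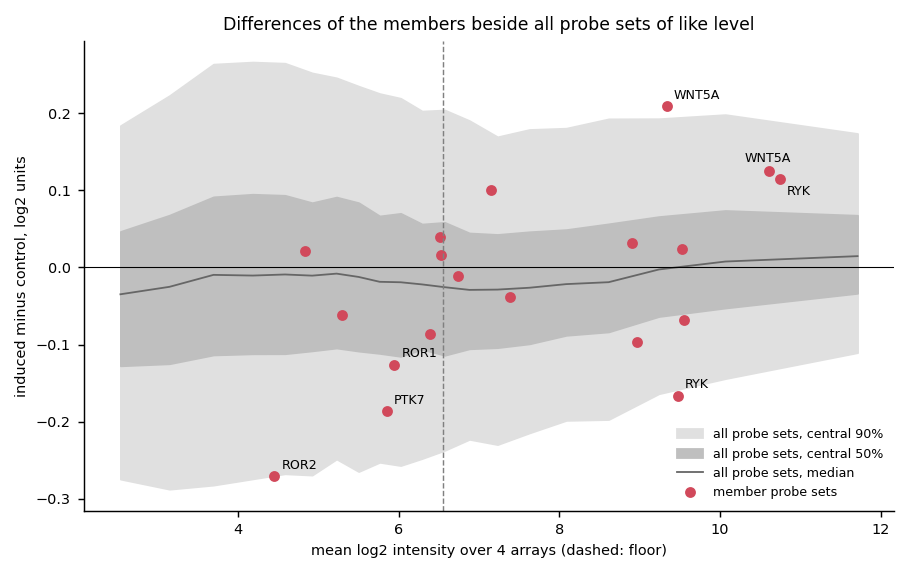
Induced minus control difference (vertical axis, log2 units) against the mean log2 intensity over 4 arrays (horizontal axis), for the 19 member probe sets (points) and for all probe sets (grey bands, central 90% and 50% in 20 bins). 16 of the 19 points lie within the wider band, and names are given for the larger differences.

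The other genes of the route were read from lists, each gene by its brightest probe set. None of their 77 measured genes passed at an adjusted p under 0.05, and 18 stood at an unadjusted p under 0.05. Of 19775 genes read this way 11.2% stood there, 1281 higher and 936 lower, with a median difference of 0.00. Of the 15 other WNT ligands 14 were measured and 3 of these lay above the floor. These were WNT6, with control values of 7.06 and 6.82 against induced values of 7.14 and 7.64 (difference 0.45, SE 0.17, adjusted p = 0.487), WNT16 at -0.09 and WNT10B at 0.15. WNT6 was high in the second induced array alone. At an unadjusted p under 0.05 stood 1 higher and 1 lower member of the list, the latter WNT8B below the floor, and the median was 0.02.

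The 13 genes listed for WNT release and retrieval mostly return WLS from endosomes or move cargo between the endoplasmic reticulum and Golgi. They also include SCD, a fatty acid desaturase, and NOTUM, a secreted enzyme that removes the lipid from WNT proteins. All 13 were above the floor and lay between -0.10 and 0.09 with a median of -0.01. The cargo receptors TMED2 and TMED10 were at 0.09 (SE 0.036) and -0.07 (SE 0.036), and AP2M1, an endocytic adaptor subunit, at 0.08. TMED2 alone stood at an unadjusted p under 0.05, which is 7.69% of the list, against 11.2% of all genes.

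Of 14 other WNT-binding receptors and their partners, 6 stood at an unadjusted p under 0.05, with a median of -0.05. That is 42.9% of the list, where 11.2% of the 19775 genes stood there. Of the 6, 1 was higher and 5 were lower, and the lower ones include FZD9, which lay below the floor. The co-receptor LRP6 was at -0.21 (SE 0.056), and the receptors FZD7 and FZD1 at -0.19 (SE 0.054) and -0.16 (SE 0.052), each with an adjusted p of 0.472. In all 3 the induced values lay below the control values, as they did in 23.5% of all probe sets. That share counts dim probe sets too, and was not computed for the brightest probe set of each gene. These 3 were named for their small p values, which favour groups that do not overlap. Among 22 genes that relay signals from WNT5A and ROR proteins, 2 higher and 3 lower ones stood at an unadjusted p under 0.05 (22.7%, against 11.2% of all genes). The median was 0.01. MAPK9, which encodes the kinase JNK2, had control values of 9.05 and 8.99 against induced values of 9.22 and 9.22 (difference 0.20, SE 0.049, adjusted p = 0.472). The formin DAAM2, which links Dishevelled to actin, was at -0.24 (SE 0.079), and the calcium-dependent kinase CAMK2D at 0.19 (SE 0.062). Of 14 genes for cleavage and turnover of receptors, 2 higher and 2 lower ones had an unadjusted p under 0.05 (28.6%, against 11.2% of all genes). The median was -0.02. The sheddase ADAM17 was at 0.17 (SE 0.041, adjusted p = 0.472), the ubiquitin ligase SMURF2 at 0.13 (SE 0.036) and the chaperone HSP90AB1 at -0.09 (SE 0.033).

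**Figure D5:**
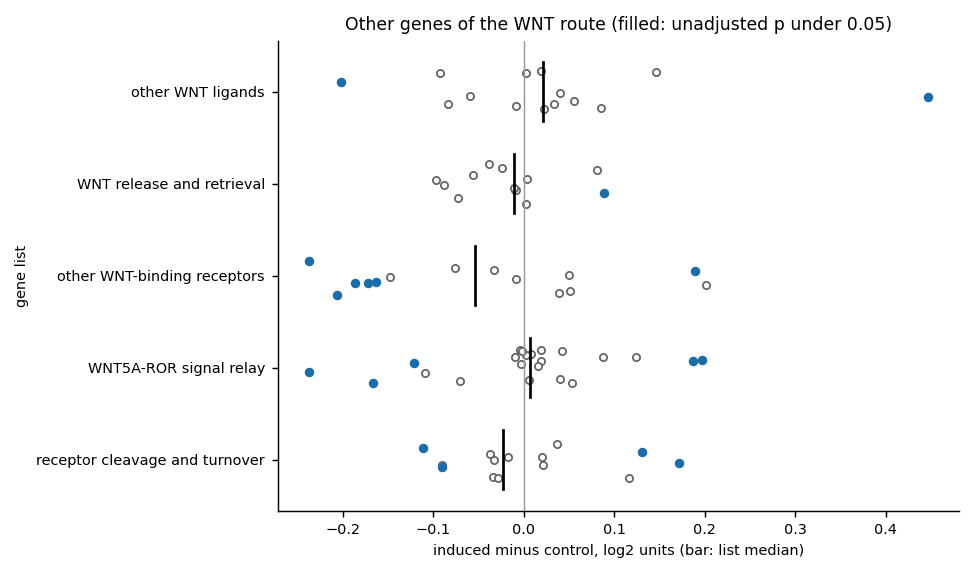
Induced minus control difference (horizontal axis, log2 units) of each gene in 5 lists along the WNT route (vertical axis), with the list median as a bar and genes at an unadjusted p under 0.05 filled. Medians lie between -0.05 and 0.02, and WNT6 at 0.45 is the point farthest to the right.

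The cell identity was checked with marker genes. Of 12 glioma and astrocyte markers 9 lay above the floor, with vimentin (VIM), nestin (NES), SOX2 and S100B bright, while the astrocyte filament gene GFAP at 5.66, SOX9 at 5.62 and AQP4 at 4.16 did not. At an unadjusted p under 0.05, 5 of the 12 were lower and 1 higher, with a median of -0.06 and 0 with an adjusted p under 0.05. Of 19775 genes read this way 11.2% stood at that unadjusted p, 1281 higher and 936 lower. The median level of this list was 9.76 and 9.79 without induction, against 9.59 and 9.71 with it. Of the markers of other cell types, 0 of 6 epithelial, 2 of 6 endothelial, 3 of 5 leukocyte, 2 of 5 oligodendrocyte and 4 of 6 neuron markers lay above the floor. Below it were EPCAM of epithelial cells at 3.22, CDH5 of endothelial cells at 3.98, PTPRC of leukocytes at 3.79, MOG of oligodendrocytes at 5.97 and RBFOX3 of neurons at 6.45. Above it were the endothelial PECAM1 and CLDN5 at 6.91 and 6.86, and the leukocyte CD3E, AIF1 and CSF1R at 6.72, 6.61 and 6.56. The oligodendrocyte CNP and MBP were at 10.63 and 7.45. The neuronal SYT1, GAD1, SLC17A7 and SNAP25 were at 9.19, 8.79, 7.35 and 7.30, and SYT1 had a difference of 0.35 (adjusted p = 0.452). Their median levels by array were 5.59 to 5.76, 5.98 to 6.25, 6.44 to 6.56, 5.88 to 6.03 and 7.26 to 7.37 in that order, and the part of any of these in the members' values was not tested. In such bulk arrays, fewer cells with a transcript and less transcript per cell cannot be told apart.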

How the data were processed

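RNA of 4 LN-229 cultures was labelled as biotin cRNA and hybridised to 1 array each, per the labels. The deposited values are log2 intensities per probe set, which the authors computed by RMA (affy package of R), according to the submitters' processing notes. RMA forces like distributions on all arrays and compresses differences near the floor. Of 54675 rows, 62 control probe sets were left out. The platform annotation gives 41091 probe sets 1 gene symbol, 1801 several and 11721 none. Promoter windows and current symbols came from RefSeq tables for GRCh38.p14. Groups came from sample titles.

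Differences are induced minus control from limma 3.58.1 in R 4.3.3 (lmFit, eBayes with an intensity trend, 2-sided, 6.27 degrees of freedom, Benjamini-Hochberg over 54613 probe sets, threshold 0.05), and the fit was tested on simulated data. Intervals are at 95% and unadjusted. With 2 arrays against 2 an exact permutation test cannot go below 0.333. The members, lists and tests were chosen with earlier results of these data known. All members were named, and from each list of the WNT route up to 3 genes of smallest unadjusted p above the floor; markers named in the check of cell identity were chosen after their values were seen. Alternatives were a replicate block, eBayes without trend or robust, 2 filters, 2 scalings, averaging per gene, other floors and leaving out each array.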

Additional observations from a re-analysis of the deposited data

How the results depend on the processing

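Under all 12 alternatives 0 member probe sets and 0 of the listed genes of the WNT route had an adjusted p under 0.05. Of all probe sets 0 did as reported, 2 with robust eBayes, 5 with centred arrays and 11 after cyclic loess, and of averaged genes 9 did. At an unadjusted p under 0.05 stood 3 member probe sets as reported, where 10% of all probe sets did. The count was 1 with a replicate block (8.1% of all), 1 without the trend (8.89%) and 1 with arrays centred on their medians (9.79%). With probe sets averaged per gene it was 1 of 8 genes (ROR2), against 10.4% of all genes. It also changed in most fits that left out 1 array, as did the share of all probe sets. RYK 202853_s_at had an unadjusted p under 0.05 with centring but not with the block, and 216976_s_at with the block but not with centring. Neither had one without the trend. The replicate numbers are only a label, with a correlation of deviations of 0.056 between same-numbered arrays. The count of route genes, 18 as reported where 11.2% of all genes stood at this p, was 11 with the replicate block, 7 without the trend and 9 with averaging. The shares given above for the same alternatives are over all probe sets for the block and without the trend, and over genes with averaging. Route genes were counted by their brightest probe set, so the first 2 shares are for an unlike unit. The count was lower in every fit without 1 array, while the share of all probe sets fell in most of them and rose in another.

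For the brightest probe set of each gene, some signs turned. That of RYK, 0.12 as reported, did not, at 0.0765 to 0.1538 over the left-out arrays. Averaging takes in the other probe sets of a gene as well, and with it RYK was at -0.0065. WNT5B was at 0.0131 with centred arrays, at 0.0142 after cyclic loess and at -0.0798 to 0.0568 over the left-out arrays. ROR1 was at -0.0293 with averaging and at -0.0964 to 0.1289, PTK7 at -0.1121 to 0.0366 and WLS at -0.1495 to 0.013. WNT5A, WNT7B (0.0076 to 0.1926 over the left-out arrays), RYK and ROR2 kept their direction in the brightest probe set under each alternative run on it. The gap between the RYK probe sets did so too (0.24 to 0.33, with alternatives added after seeing the data). The cause of these changes was not tested. A fit without 1 array assumes that the lone array of its group varies like the others. The number of arrays limits the precision, and below the floor signals carry little information.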
